A study of Homo sapiens with 4 samples.

Results

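The members described here were the integration barcodes (intBCs) of a Cas9 lineage recorder that were listed in clearly different shares of a clone's cells on the plates of the first split. They were selected on the deposited allele table, in the 9 of 11 clones that had at least 20 cells on each plate of the first split (88 intBCs). An intBC was taken when the percent of the clone's cells that listed it differed by more than 20 points between plate 0 (libraries 00 and 01) and plate 1 (libraries 10 and 11). This gave 18 of the 88 intBCs (20.5%), in 6 clones that together held 14924 of the 34557 cells in the table. Those percents chose the members, so they are given as a description and no test is made on them.

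The recorder works by writing heritable scars into DNA. Each target site is a lentiviral insertion that expresses a GFP transcript, and in the 3′ part of this transcript lie a random 14-base intBC, which tells insertions of the same cell apart, and 3 cut sites for Cas9. Repair after a cut leaves an insertion or a deletion (indel) that daughter cells inherit, so cells that share an indel at the same intBC may share an ancestor, although frequent indels also arise repeatedly. When Cas9 cuts at more than 1 site of the same insertion, the stretch between the cuts can be lost. Transcripts are read, not DNA: an intBC that is not listed in a cell may be silenced, removed, missed in sequencing or dropped by a filter, and these cannot be told apart here.

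A549 cells, a human lung adenocarcinoma line, carried Cas9 with mCherry, target sites added in serial lentiviral infections and a vector with a triplet of guide RNAs. The pool was grown through a pair of plate splits, and each of the 4 final plates gave 1 library with 8031 to 9337 cells and 679952 to 812480 unique molecular identifiers (UMIs, tags that count single transcripts). The label's first digit was taken to mark the plate after the first split, although the sources do not state the order of the digits. No plate had a replicate, and the identity of the line could not be checked, because the table holds target site transcripts only. Of 33935 distinct cell barcodes, 621 (1.83%) occurred in more than 1 library. The authors assigned cells to clones by their intBCs, and no member was listed in another clone or in the 121 cells outside the 11 clones.

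The 18 member barcodes are printed because they are the identity of each insertion. Each is named by its clone and a letter in the order of the size of its difference, and the capitals mark the whole barcode.
C2a: GTGCGAGCCACGTA
C4a: CGACAATGTAGTTG
C5a: AGATGTCCCACCCT
C5b: ACCTGACCTTACTT
C5c: GTGTAATAAGACTA
C5d: GTCCGTTATAAAGG
C5e: AGAGAGCTACCGTA
C5f: GGTTTACTGAGTAG
C6a: AACCAATATACAGG
C6b: AGAAGTTACATCAC
C10a: CGGCTCCATCTGTT
C10b: GCATTCCCCTTATG
C10c: GATCTTGCCTGACG
C10d: TGTTTGCATCGTGG
C10e: ATAGGTTTTGCGCG
C10f: TTGTCCATAACGGT
C11a: ATCATAATCTGCAT
C11b: CGAATTTTCATGGT

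In the same clones, 42 other intBCs did not meet the rule, and their indels were used to tell subclones apart. The 7 barcodes below, named with N, carried most of the indels on which the account of the subclones rests and were chosen after their values were seen.
N2k: TTCCATTCTTCCGC
N4c: CGCGCGTCCGGGTC
N5b: TTATTTTGAGGCAA
N5c: TAGTGGGCGTTTTC
N6c: AGGTATTTCTTGGG
N10b: TGCTAATGCTAAGA
N10d: AGCAACTTCCTAGT

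The 18 members were spread unevenly over the clones. Clone 5 and Clone 10 held 6 each, of 9 and of 12 intBCs, Clone 6 and Clone 11 held 2 each, of 5 and of 8, and Clone 4 and Clone 2 held 1 each, of 9 and of 17. The other 3 eligible clones, Clones 1, 3 and 7, held none among 9, 16 and 3 intBCs. Of the members, 11 were listed in more cells on plate 0 and 7 in more cells on plate 1. The sizes of the differences ran from 20.8 to 92.0 points with a median of 36.8, whereas the median size over the 70 other intBCs was 3.84 points, a contrast that the rule itself fixes. The values of both libraries of a plate lay on the same side of both libraries of the other plate for all 18 members, and this held for 73.9% of the 88 intBCs.

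Just inside the threshold were C11b (71.4% of cells on plate 0 and 92.2% on plate 1, plate 0 minus plate 1 = −20.8 points) and C10f (65.4% and 86.7%, −21.3 points). Just outside it were N5a of Clone 5 (19.4% on plate 0 and 0% on plate 1, 19.4 points), N6a of Clone 6 (53.6% and 72.8%, −19.2 points) and N7a of Clone 7 (72.9% and 91.2%, −18.4 points). The members' barcodes differed from the nearest other barcode of their clone at 7 to 10 of 14 positions and from any other barcode in the table at 5 to 8. Their GC content was 28.6% to 64.3% with a median of 42.9%, and the median of the 70 other intBCs was also 42.9%.

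Clone 5 had the largest differences. It had 1618 cells on plate 0 (722 and 896 in libraries 00 and 01) and 102 on plate 1 (49 and 53 in libraries 10 and 11). C5a was listed in 93.4% and 90.8% of the cells in libraries 00 and 01 and in 0% of those in libraries 10 and 11. On plate 0 this was 1488 of 1618 cells (92.0%, exact 95% binomial interval 90.5 to 93.2%). On plate 1 it was 0 of 102 cells. The exact 95% interval reached 3.55% there, and the limit that 3 cells would give was 2.94%. Upper limits printed below for counts of 0 are of the 3-cell kind, which is the lower of these values. Intervals and limits of this kind cover counting error only, and cells of a clone share ancestors, so they are too narrow for the clone.

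C5d and C5e were also listed on plate 0 alone. C5d was in 71.5% and 72.9% of the cells in libraries 00 and 01, and C5e in 66.3% and 63.8%, and each was in 0 of 102 cells on plate 1. C5b was listed in 80.9% and 81.5% of the cells in libraries 00 and 01 against 4.08% and 0% in libraries 10 and 11. The plate 0 cells that listed C5b had a mean of 22.1 UMIs of it, and the 2 such cells of plate 1 had 1 UMI each. C5f was on both plates, in 89.2% and 88.5% of the cells of libraries 00 and 01 and in 51.0% and 41.5% of those of libraries 10 and 11. C5c ran the other way, with 5.96% and 7.37% in libraries 00 and 01 and 85.7% and 81.1% in libraries 10 and 11. For each of the 6, the libraries of the second split lay within 9.51 points of each other.

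The alleles of these intBCs had few forms. All 1488 plate 0 cells that listed C5a had the same allele, a deletion of 108 bases from position 113 that ran across the 3 cut sites (positions are those the table gives in the target site). The same deletion was the allele of 90.6% of the listed C5b on plate 0, with a mean of 22.6 UMIs per cell, and of 28.5% of the listed C5e, with a mean of 19.0 UMIs. The commonest C5e allele (54.7% of listed cells, mean 12.2 UMIs) had 15 inserted bases at position 111, 1 inserted base at 166 and a deletion of 2 bases at 219. C5d was more varied, with 63 alleles on plate 0, led by a deletion of 176 bases from position 71 (25.7% of listed cells) and a combination of deletions of 14, 1 and 2 bases at positions 105, 166 and 219 (22.1%). Its cut sites were edited in 96.7% of cases, and 13 of 1169 listed cells had none of the 3 sites edited.

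C5f had different alleles on the 2 plates. On plate 0, 82.5% of the 1437 listed cells combined a deletion of 68 bases at position 108 with a deletion of 42 bases at position 182. On plate 1 all 47 cells that listed it had the deletion of 108 bases from position 113, which no plate 0 cell had at this intBC. C5c shared 3 alleles between plates, of 9 on plate 0 and 16 on plate 1. All 109 plate 0 cells that listed C5c had 1 base inserted at position 111, as did 84 of the 85 on plate 1, but the second cut site differed. A deletion of 18 bases at position 161 stood there in 92 of the 109 plate 0 cells, while a deletion of 19 bases at position 155 was in 17 plate 0 cells and 84 of the 85 plate 1 cells.

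Junctions of the indels that set these groups apart are printed to show the scars themselves, as the 5 bases left of the edit in lower case and the 5 bases right of the deletion in capitals. Those on N5c are at its first cut site.
C5a, deletion of 108 bases at 113: ccgaaCGGAG
N5c, deletion of 70 bases at 108: gtacgCCGTG
N5c, deletion of 2 bases at 111: cgccgAAATG
N5c, deletion of 6 bases at 113: ccgaaCCTGA

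The first cut site of N5c divided the cells that listed N5c into 3 subclones that differed in which members were listed. N5c was not listed in 37 cells of plate 0 and 6 of plate 1. The deletion of 70 bases was in 1480 cells, all on plate 0. Of these, 98.7% listed C5a, 94.7% C5f, 82.2% C5b, 71.9% C5d and 69.9% C5e, and 1 cell listed C5c. The deletion of 2 bases was in 80 cells, also all on plate 0, 25 in library 00 and 55 in library 01. Of these, 98.8% listed C5c, 95.0% C5d and 86.2% C5b, while C5f was in 1, and C5a and C5e were in 0 of 80 (upper limit 3.75%).

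The deletion of 6 bases was the subclone found on both plates, in 21 cells of plate 0 and 96 of plate 1. In its cells the members were listed in similar percents on both plates: C5c in 17 of 21 (81.0%) and 81 of 96 (84.4%), C5f in 11 of 21 (52.4%) and 47 of 96 (49.0%), C5b in 0 and 2, C5d in 0 and 0, C5a in 2 and 0, and C5e in 1 and 0. The 2 plate 0 cells of this subclone with C5a had 1 UMI each. The difference over the whole clone, plate 0 minus plate 1, was −76.6 points for C5c and 42.7 points for C5f, against −3.42 and 3.42 points inside this subclone. With 21 cells on plate 0, these last values are coarse. C5f was listed with different alleles in the same subclone. The 11 plate 0 cells had a mean of 3.82 UMIs and mostly a deletion of 17 bases at position 150, while the 47 plate 1 cells had the 108-base deletion and a mean of 19.4 UMIs.

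Inside plate 1, C5f divided the subclone further by the second cut site of N5c. It was listed in 0 of the 49 cells with 1 base inserted at position 166 (upper limit 6.12%) and in 47 of the 47 cells with 7 bases inserted there. Both of these groups were in both libraries, with 23 and 26 cells and with 25 and 22 cells. Nearly all cells of the clone shared an edit at N5b, where a deletion of 54 bases at position 167 was in 1549 plate 0 cells and in all 102 plate 1 cells. Among the carriers of this deletion C5a was listed in 95.0% on plate 0 and 0% on plate 1.

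Some members of Clone 5 were missing in sets, and other pairs of members were not. On plate 0, 736 of 1618 cells listed C5a, C5b, C5d, C5e and C5f, and 73 listed C5b, C5c and C5d without the others. No cell listed all 6. C5a and C5f were both missing in 6.24% of plate 0 cells, where the product of their single shares was 0.899%, and their phi coefficient over 1618 cells was 0.62. C5b and C5e were both missing in 17.8% of plate 0 cells, against a product of 6.58% (phi 0.60). C5a and C5c were seldom listed together, in 3 plate 0 cells (phi −0.88). Of the other pairs on plate 0, some were near 0, such as C5b with C5f (phi 0.02) and C5d with C5e (phi 0.03). Some were further from it, such as C5e with C5f (phi 0.41) and C5c with C5f (phi −0.69). On plate 1, 48 of 102 cells listed C5c alone, 35 listed C5c and C5f, 12 listed C5f alone and 5 listed none of the 6. These coefficients describe cells of the same libraries that share ancestors and depth. Depth moved with the plates in this clone, with a median of 98 UMIs per cell on plate 0 and 31.5 on plate 1, totals that include the members themselves. Over the 3 intBCs outside the members the medians were 28 and 19 UMIs, and the part of depth in the differences was not tested beyond the thinning. With every cell thinned to 30 UMIs, C5a stood at 92.4% of 1529 plate 0 cells and 0% of 55 plate 1 cells, C5c at 5.17% and 89.1%, and C5f at 89.6% and 56.4%.

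Clone 10 had 364 cells on plate 0 (203 and 161) and 113 on plate 1 (66 and 47), and its 6 members were divided evenly by direction. C10a was listed in 32.5% and 44.1% of the cells of libraries 00 and 01 and in 84.8% and 87.2% of those of libraries 10 and 11. This came to 37.6% on plate 0 (exact 95% interval 32.6 to 42.8%) and 85.8% on plate 1 (78.0 to 91.7%). C10d (73.4%, 66.5%, 97.0% and 100% in libraries 00, 01, 10 and 11) and C10f (72.4%, 56.5%, 86.4% and 87.2%) were also lower on plate 0. C10b was listed in 41.9% and 44.7% of the cells of libraries 00 and 01 and in 0% and 4.26% in libraries 10 and 11. C10c (76.8%, 78.9%, 47.0% and 44.7%) and C10e (87.2%, 83.9%, 51.5% and 78.7%) were likewise higher on plate 0. C10e differed by 27.2 points between libraries 10 and 11, with 34 of 66 and 37 of 47 cells. Among the 80 intBCs of clones with 20 or more cells in every library it was the only one with more than 20 points between libraries of the same first-split plate (1.25%). Without library 10, C10e was listed in 85.7% of plate 0 cells and 78.7% of library 11 cells, a difference of 6.99 points, and it then no longer met the rule. Without library 01, C10f no longer met it either (−14.3 points). In Clone 11, which is too small to be among the 80, N11c was listed in 73.1% of the 52 cells of library 10 and 46.9% of the 64 of library 11.

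The plate 0 cells that lacked C10a were marked by indels elsewhere. C10a was in 0 of the 42 cells with a deletion of 1 base at position 221 of N10b and in 0 of the 36 plate 0 cells with a deletion of 16 bases at position 113 of N10d. Indels whose plate 0 carriers listed C10a in under 5% of cells, counting indels in 20 or more cells, covered 145 of the 227 cells that lacked it. The N10d deletion was also in 86 plate 1 cells, of which 87.2% listed C10a, so carriers of that indel differed by −87.2 points between plates. The alleles of C10a were mostly lightly edited. Of its 137 plate 0 cells 27.7% had no edit, and 67 had a deletion of 16 bases at position 158, whose 2 commonest alleles (44 and 20 cells) were in no plate 1 cell. The cells that listed it had means of 13.2 UMIs on plate 0 and 15.7 on plate 1.

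On plate 0, C10d and C10f were often missing in the same cells, and C10a ran the other way. C10d and C10f were both missing in 21.2% of plate 0 cells, with a product of 10.3% (phi 0.50, 364 cells). Of the 62 cells with a deletion of 3 bases at position 220 of N10b, 1 listed C10d, 0 listed C10f and 93.5% listed C10a. C10f was missing in 15.9% of the cells lacking C10a and in 65.7% of the cells listing it (phi −0.51).

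C10d stood out by its UMIs. Its listed alleles had means of 9.11 and 8.21 UMIs per cell in libraries 00 and 01 and of 20.9 and 25.3 in libraries 10 and 11, a plate 0 to plate 1 ratio of 0.384. Over the 11 members with 20 or more listed cells on each plate this was the lowest ratio, the highest being 1.33, and over 65 other intBCs the ratios ran from 0.671 to 1.61. The lowest of the 65 was N10d, of the same clone, where the 6 intBCs outside the members had ratios of 0.671 to 1.16. Over these 6, Clone 10 cells had medians of 63 UMIs on plate 0 and 73 on plate 1. The part of depth in the ratio of C10d was not tested. The alleles of C10d differed as well. On plate 0 the commonest allele had 2 bases inserted at position 167 (37.1% of 256 listed cells, mean 7.23 UMIs). A deletion of 54 bases from position 113 across cut sites 1 and 2 was the allele of 3.12% of the plate 0 cells (8 cells, mean 11.8 UMIs) and of 81.1% of the 111 plate 1 cells (mean 25.5 UMIs).

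C10b carried the same 54-base deletion on plate 0, as 60.5% of its listed alleles, with a mean of 9.35 UMIs. Its 2 plate 1 cells had 1 UMI each and another allele, a deletion of 3 bases at position 209. It also had the largest share of single-UMI listings on plate 0 among the members, 26.1% of 157 cells, against 0% to 8.48% in the 17 other members. On plate 1 such shares were not all low, with 17.3% of 52 cells for C10c and 15.5% of 71 for C10e. For C10c, 53.7% of the 283 plate 0 cells had deletions of 5 bases at position 167 and 29 bases at 200, an allele that no plate 1 cell had. C10e shared 1 allele between plates, of 27 on plate 0 and 19 on plate 1: a deletion of 19 bases at position 155 led on plate 0 (212 of 312 cells) and 1 base inserted at position 111 on plate 1 (67 of 71). Indels at other intBCs whose carriers nearly all lacked C10c, C10e or, on plate 0, C10b were not found in groups of 20 or more cells.

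In Clone 6, with 995 cells on plate 0 (502 and 493) and 710 on plate 1 (369 and 341), both members were listed in more cells on plate 0. C6a was in 89.8% and 89.2% of the cells in libraries 00 and 01 and in 61.8% and 52.5% in libraries 10 and 11. C6b was in 67.5% and 64.3% in libraries 00 and 01 and in 35.0% and 44.3% in libraries 10 and 11. The libraries of plate 1 differed by 9.30 points for C6a, with library 10 higher, and by 9.32 points for C6b, with library 11 higher.

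Subclones that lacked C6a or C6b were found on plate 1. C6a was in 0 of the 161 plate 1 cells with a deletion of 6 bases at position 113 of N6c, 77 in library 10 and 84 in library 11 (upper limit 1.86%). It was in 145 of the 145 cells with a deletion of 19 bases at position 155 of N6c, and those 145 cells, 91 and 54 in the libraries, held C6b in 0 cases. Indels of this kind covered 191 of the 303 plate 1 cells lacking C6a and 296 of the 430 lacking C6b. The 19-base deletion of N6c was also in 362 plate 0 cells, of which 98.3% listed C6a and 51.4% listed C6b. Over the 7 indels of Clone 6 with 20 or more cells on each plate, plate 0 minus plate 1 ran from 6.54 to 68.5 points for C6b, with a median of 51.1 against 26.5 for the whole clone. For C6a it ran from −11.1 to 31.1 points, with a median of 0 against 32.2.
N6c, deletion of 6 bases at 113: ccgaaCCTGA
N6c, deletion of 19 bases at 155: ttgggTCATC

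The members of Clone 6 were both missing in 19.7% of plate 1 cells, less than the product of their single shares, 25.8% (phi −0.25, 710 cells). On plate 0 the phi coefficient was −0.07. The deletion of 108 bases from position 113 was the commonest allele of C6a on both plates, in 47.3% of 891 and 38.6% of 407 listed cells, with means of 18.2 and 17.2 UMIs. Unedited C6a alleles had means of 9.60 and 10.0 UMIs. C6a had 151 alleles on plate 0 and 71 on plate 1, with 9 in common, and C6b had 162 and 74, with 19 in common. Unedited sites were the commonest allele of C6b, in 27.1% of 656 plate 0 cells and 21.8% of 280 plate 1 cells.

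C4a was the single member of Clone 4, which had 1496 cells on plate 0 (676 and 820) and 988 on plate 1 (460 and 528). It was listed in 91.9% and 90.7% of the cells of libraries 00 and 01 and in 63.3% and 57.0% of those of libraries 10 and 11. All listed alleles on both plates carried the same deletion of 54 bases from position 167 across cut sites 2 and 3. The first site was edited in 54.1% of listed cells on plate 0 and 29.6% on plate 1, and a deletion of 29 bases at position 104 was in 503 of 1365 plate 0 cells (mean 14.1 UMIs) and 54 of 592 plate 1 cells (mean 9.37 UMIs). Cells with the first site uncut had means of 8.60 and 8.35 UMIs.

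A small subclone without C4a was on both plates. The deletion of 1 base at position 111 of N4f was in 70 cells of plate 0 and 41 of plate 1, of which 2 and 1 listed C4a. A larger group was found on plate 1. The deletion of 54 bases at position 167 of N4c was in 92 plate 0 cells, of which 96.7% listed C4a, and in 361 plate 1 cells, of which 16.3% did. In some other groups the plates were close: among carriers of a deletion of 53 bases at position 167 of N4d, 93.9% of 246 plate 0 cells and 91.4% of 326 plate 1 cells listed C4a. On plate 1, C4a was missing together with N4d, which was missing in 89.4% of the cells lacking C4a and in 21.8% of the cells listing it (phi 0.66, 988 cells). Over the 31 indels of Clone 4 with 20 or more cells on each plate, plate 0 minus plate 1 for C4a ran from −18.1 to 80.4 points with a median of 5.79, against 31.3 points for the whole clone, and 14 of the 31 were higher on plate 0 by over 20 points.

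C2a was the single member of Clone 2, which had 2760 cells on plate 0 (1244 and 1516) and 5641 on plate 1 (2661 and 2980). It was listed in 66.6% and 65.0% of the cells of libraries 00 and 01 and in 89.5% of those of each of libraries 10 and 11. The exact 95% intervals were 63.9 to 67.5% for plate 0 and 88.7 to 90.3% for plate 1.

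The plate 0 cells without C2a were concentrated in subclones. A deletion of 28 bases at position 206 of N2k was in 413 plate 0 cells, 167 in library 00 and 246 in library 01, of which 1 listed C2a, and it was in 1 plate 1 cell. Another indel, 11 bases inserted at position 170 of N2d, was in 351 plate 0 cells, none of which listed C2a, and in no plate 1 cell. In all, 15 of 180 indels with 20 or more plate 0 cells had carriers listing C2a in under 5% of cells. Their 836 carriers held 809 of the 946 plate 0 cells lacking C2a. On plate 1, 2 of 296 indels did so, with 29 of the 593 cells lacking C2a. The plates also differed among carriers of the same indel. Over the 102 indels of Clone 2 with 20 or more cells on each plate, plate 0 minus plate 1 for C2a ran from −94.3 to 26.3 points with a median of −18.4, against −23.8 for the whole clone, and 50 of the 102 were lower on plate 0 by over 20 points.
N2k, deletion of 28 bases at 206: tagcaGGTTC

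Many cells listed C2a in unedited form. No site was edited in 481 of 1814 plate 0 cells (26.5%) and in 1618 of 5048 plate 1 cells (32.1%). On plate 0, 349 cells had a deletion of 5 bases at position 113 with a deletion of 23 bases at 160, an allele that no plate 1 cell had. Mean UMIs per listed cell were 8.77 on plate 0 and 8.13 on plate 1. The difference was smaller than 20 points when alleles with fewer than 5 UMIs were counted as not listed, at 49.8% on plate 0 and 63.2% on plate 1.

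Clone 11 had 21 cells on plate 0 (9 and 12) and 116 on plate 1 (52 and 64), so its values on plate 0 rest on few cells. C11a was listed in 44.4% and 33.3% of the cells of libraries 00 and 01 and in 84.6% and 76.6% in libraries 10 and 11, with exact 95% intervals of 18.1 to 61.6% for plate 0 and 71.8 to 87.0% for plate 1. C11b was listed in 77.8% and 66.7% in libraries 00 and 01 and in 96.2% and 89.1% in libraries 10 and 11, and the intervals, 47.8 to 88.7% and 85.8 to 96.4%, overlapped. Without library 10 its difference was −17.6 points, and it no longer met the rule. After thinning to 30 UMIs, C11b stood at 75.0% of 20 plate 0 cells and 81.3% of 107 plate 1 cells. With alleles under 5 UMIs counted as not listed the order of the plates turned, with 71.4% on plate 0 and 62.1% on plate 1. Single-UMI listings made up 0% of the 15 plate 0 cells and 19.6% of the 107 plate 1 cells that listed C11b. All 15 plate 0 cells that listed C11b had the same allele, with 8 bases inserted at position 216, which no plate 1 cell had. C11b and N11b were both missing in 5 of the 21 plate 0 cells (phi 0.88). C11a alleles on plate 1 were led by deletions of 9 bases at position 167 and 19 bases at 205, in 88 of 93 cells each.

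The members were set against the other intBCs of their clones on 3 measures other than the percents of the rule, with the clone as the unit. All 3 were taken only from cells of the plate that listed the intBC in the larger percent. The percents of the rule thus chose the plate, so the comparison is not independent of the rule. The values are not those of the whole clone. The exact permutation test flipped the signs of the 6 clone differences (two-sided), and the smallest p it can give is 0.0312. Mean log2 UMIs per listed allele, on the plate with the larger percent, were 3.53 for members and 3.54 for other intBCs, a difference of −0.01 ± 0.23 (SD over 6 clones, exact permutation p = 0.906, adjusted p = 0.906), with members higher in 3 of 6 clones.

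Cut sites were edited in 67.6% of cases in members and 66.1% in other intBCs, a difference of 1.53 ± 7.58 points (n = 6 clones, exact permutation p = 0.594, adjusted p = 0.906). Alleles with a deletion across cut sites made up 41.7% of listed alleles in members and 45.2% in others, a difference of −3.60 ± 35.6 points (n = 6 clones, exact permutation p = 0.812, adjusted p = 0.906). This last measure varied most between clones, from −50.0 points in Clone 11 and −41.7 in Clone 5 to 37.9 in Clone 4. By the permutation test none of the 3 differences could be told from 0 with 6 clones, and each was smaller than its SD over clones. The size of the difference between libraries of the same first-split plate was 4.48 points for members and 4.05 for others (difference 0.428 ± 1.60 points, SD over 6 clones). It is built from the library percents that the rule pooled, so it is given as a description with no test.

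The depth of cells lacking a member was described by the other intBCs of their clone. Its part in the absences was not tested, and the pairs below share cells. Over the 24 pairs of a member and a plate with 20 or more lacking and 20 or more listing cells, the median UMIs of the clone's other intBCs outside the members were lower in the lacking cells in 13 pairs and higher in 11. The ratio of lacking to listing cells ran from 0.517 to 2.07 with a median of 0.965. For C2a, the medians were 83.5 UMIs in lacking cells and 80 in listing cells on plate 0, but 61 and 79 on plate 1. For C4a they were 67 and 53 on plate 0 and 45.5 and 55 on plate 1. The lowest ratio was that of C5a on plate 0 (15 UMIs in 130 lacking cells and 29 in 1488 listing cells), in a clone with 3 intBCs outside the members. The highest was that of C5c on plate 0 (29 and 14 UMIs), and C5a and C5c were seldom listed together. Those 3 intBCs also differed between subclones: N5b was missing in 40% of the plate 0 cells lacking C5a and in 1.14% of those listing it. For C6b on plate 1 the lacking cells were deeper (24.5 and 19 UMIs).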

How the data were processed

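Target site transcripts of A549 cells were analysed in 4 libraries, 1 per final plate, from the allele table of the whole experiment. The UMI and read counts in it were made by the authors before they were deposited: Cell Ranger 2.0.1 was used upstream, consensus reads were aligned to a target site reference, poorly covered UMIs and cells were removed, rare intBCs of a clone were dropped, and cells were assigned to clones. The counts were not normalized. Filters and clone calls rest on the detection of intBCs, so they set both the numerators and the denominators of the percents. In the deposited text columns, other than counts, a cut site is given as uncut or as the position, length and kind of an indel.

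An intBC was counted as listed in a cell when the table had an entry for it, at any number of UMIs. Percents were taken over the clone's cells per library and per first-split plate. The members and lists were chosen with earlier results of these data known. Every member was named, the one with the largest difference in each clone and all members of clones with up to 3 were described in full, and other named intBCs and indels were chosen after their values were seen. Subclones were defined by indels at intBCs outside the members in 20 or more cells of a plate, and a lacking subclone listed the member in under 5% of its cells. Cells per clone ranged from 21 to 5641 per plate. Binomial intervals are exact (Clopper-Pearson, 95%), and a count of 0 was taken to allow up to 3 cells. Comparisons with other intBCs used sign-flip permutation over clones, checked on simulated data. The p values were adjusted by Benjamini-Hochberg over 4 tests, of which that of the second-split difference is not printed, because it shares its percents with the selection. Alternatives covered the threshold, a minimum of 5 UMIs, cells thinned to 30 UMIs (1846 cells of plate 0 and 1962 of plate 1 left out), clones with 50 or more cells on each plate, each library and clone left out, and the reading of the plate labels. The 121 cells outside the clones and the deposited tree of Clone 9 were not used. Clones 8 and 9 (2 and 0 cells on plate 0) were left out under the main reading of the plate labels. Under the other reading Clone 8 was eligible. Computations were made in Python 3.11.15 (scipy 1.17.1, numpy 2.4.6 and pandas 2.3.3).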

Additional observations from a re-analysis of the deposited data

How the results depend on the processing

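The number of members was 18, and it was 35 at a threshold of 10 points and 1 when the second digit of the label was read as the first split. That 1 was N11c (29.4 points), which is no member, and the largest difference of a member under that reading was that of C10f (12.4 points). Clone 8 was also eligible under that reading, so the set of intBCs was not the same. The number of members was 12 at 30 points, 14 with a minimum of 5 UMIs, 16 after thinning to 30 UMIs and 16 in clones with 50 or more cells on each plate. It was 12 to 19 when a library or a clone was left out, with 12 without Clone 5 and 12 without Clone 10. C10f and C11b were lost both after thinning and with the minimum of 5 UMIs, and C2a and C6b with the latter only. Of the members, C10e alone moved by over 1.5 times when a library was left out (6.99 points without library 10). With that minimum 17 of the 18 members kept their direction, the exception being C11b (9.36 points).

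The comparisons with other intBCs reached no adjusted p under 0.05 in any alternative, and their directions were not stable. Several alternatives held 5 clones, such as the threshold of 30 points and the minimum of 5 UMIs. With 5 clones the sign-flip test cannot give a p under 0.05, so the lack of a small p was fixed in advance there. With 6 clones, as in the main setting, the smallest p of that test is 0.0312. Once adjusted over 4 tests, a single such p is above 0.05, so little can be read from its absence. UMIs per allele gave −0.01 (log2), −0.18 at a threshold of 10 points, −0.14 after thinning and −0.11 with the minimum of 5 UMIs, and −0.0603 to 0.0611 when a library or a clone was left out. Edited cut sites gave 1.53 points, −1.31 at a threshold of 10 points, 5.89 at 30 points and 7.43 with the minimum of 5 UMIs, and −0.554 to 3.79 with a library or a clone left out. Deletions across cut sites gave −3.60 points, but 1.29 at 10 points, 2.34 with the minimum of 5 UMIs, 5.71 after thinning, 5.68 in clones with 50 or more cells on each plate, and −11.9 to 6.81 with a library or a clone left out. The second-split difference gave 0.428 points, but −0.0879 at 30 points, −1.39 with the minimum of 5 UMIs and −0.143 after thinning, and 0.00807 to 1.76 with a library or a clone left out. No paired analysis of libraries was possible because each plate has a single library and no replicate numbers pair them. Members and other intBCs were paired within clones in the sign-flip test.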

Other observations

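Alleles with a deletion across cut sites were listed with more UMIs than other alleles of the same intBC in the same library, where 20 or more cells had each. The mean ratio was above 1 in 8 of 9 members (median 1.30, from 0.627 in C10b to 1.67 in C5f) and in 45 of 48 other intBCs (median 1.25).

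The deposited tree of Clone 5 holds all 1720 cells of the clone, 102 of them at more than 1 leaf. Counting each cell once, the largest clades of 20 or more cells with under 5% listing a member were taken. They held 92.2% of the 551 cells lacking C5d in 6 clades and 90.1% of the 669 lacking C5e in 5. They held 82.2% of the 404 lacking C5b in 4 clades, 81.0% of the 232 lacking C5a in 3 and 77.1% of the 236 lacking C5f in 3. For C5c, 1 clade held 98.6% of the 1526 lacking cells, but it had 1505 of the 1720 cells of the clone. The tree comes from the same cells and target sites, so this is no independent view of the subclones.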
